A study of Mus musculus with 60 samples.

Results

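The hippocampi of mice without Glo1 that ate a diet lacking vitamin B6 (VB6) were compared with those of wild-type (WT) mice that ate a normal diet, over all genes measured by messenger RNA sequencing. The comparison used 10 of the 60 libraries of the study, chosen by the genotype, diet and region in their names: 5 hippocampal libraries of knockout (KO) mice on the lacking diet and 5 of WT mice on the normal diet, each from a different mouse. The study sequenced 3 brain regions of 20 mice, and the hippocampus gave 20 libraries, 5 for each pairing of a genotype with a diet. The normal diet held 1.4 mg of VB6 per 100 g and the lacking diet 5 µg per 100 g, and the diets were given from 8 to 12 weeks of age. The way the knockout was made, the strain and the sex were not given in the sources used here. Genotype and diet both differed between the compared groups. All 5 KO libraries carried batch label 1 and all 5 WT libraries batch label 2, so genotype and batch cannot be told apart, and no value within a batch can be given.

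Glo1 encodes glyoxalase 1, which acts on the adduct of the reactive sugar by-product methylglyoxal with glutathione, the first enzyme step of the glyoxalase pathway. Hagh encodes the enzyme of the next step. VB6 is converted in cells to pyridoxal phosphate, the cofactor of many enzymes of amino acid and neurotransmitter metabolism, and its amine forms can also react with carbonyl compounds such as methylglyoxal. The hippocampus is built from glutamatergic granule and pyramidal cells and from GABAergic interneurons, and the enzymes that make and break down GABA need pyridoxal phosphate.

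The libraries held between 9230934 and 13928265 counts, and 3 counts in a library corresponded to between 0.215 and 0.325 CPM (counts scaled to equal library totals), a floor that covers counting error only. The KO libraries had a mean total of 11657000 counts and the WT libraries 9988620 (exact permutation test, two-sided, p = 0.167, n = 5 per group), and mean RNA integrity numbers (RIN) of 8.9 and 8.62 (exact p = 0.183; both p-values were 0.183 after adjustment over the 2 tests). The VB6 level in the labels, which do not name the material it was measured in, lay between 2.25 and 5.63 ng/µl in the KO mice and between 58.25 and 77.48 ng/µl in the WT mice. Markers of the hippocampus were present in every library, such as Prox1 of dentate granule cells, at 241 to 292 CPM in both groups, and Wfs1 of CA1 pyramidal cells, at 29 to 50 CPM. The first principal component of the 10 libraries, with 26.7% of the variance, did not separate the groups: it ran from WT mice 273 and 272, at -28.9 and -18.2, to WT mouse 286, at 39.5. Choroid plexus genes such as Ttr, Kcnj13 and Clic6 lay at the low end of this component, and Gm10800 and Gm10801 at the high end. Of the 10 libraries, that of WT mouse 286 had the fewest genes with a count, 14969 against 15221 to 15644. It also had the lowest TMM normalization factor, 0.944. What sets this library apart was not tested.

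Of 13393 genes tested, 2 fell in the KO hippocampus on the lacking diet and 0 rose, 0.0149% of the genes in all (edgeR quasi-likelihood test over the 20 hippocampal libraries, Benjamini-Hochberg (BH) adjusted p under 0.05). These were Glo1 and Atp6v0c, which encodes the ring-forming proteolipid subunit of the membrane sector of the V-ATPase, the pump that acidifies lysosomes and synaptic vesicles. At an unadjusted p under 0.05 there were 485 genes, 3.62% of those tested, 173 of them higher (1.29%) and 312 lower (2.33%) in KO. In 116 genes, 0.866% of those tested, the CPM of the 5 KO libraries and the 5 WT libraries did not overlap, 38 being higher (0.284%) and 78 lower (0.582%). DESeq2 on the same libraries called 15 genes, and leaving out WT mouse 317 gave 11.

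Glo1 checked the genotype labels. Its counts were 535, 587, 658, 534 and 622 in WT mice 272, 273, 283, 286 and 317, and 2, 2, 5, 5 and 3 in KO mice 242, 244, 325, 339 and 452. In CPM these were 55.6, 56.7, 67.1, 57.8 and 56.9 against 0.217, 0.186, 0.359, 0.364 and 0.282. The groups lay far apart, and each KO library held a few counts. Glo1 fell by 7.59 on the log2 scale (SE 0.262, edgeR adjusted p 3.04e-16, n = 5 per group). In the RefSeq annotation of GRCm38.p6, the build the submitters' processing notes name as mm10, the gene lies on chromosome 17 from 30592861 to 30612659. In GENCODE M21 it overlaps other genes, Dnah8 among them, and 6.35% of the 75-base stretches of its transcripts occur in another gene.

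Atp6v0c stood at 9.56, 8.22, 10.4, 7.26 and 3.93 CPM in the WT mice, in the same order, and at 0.433, 0.372, 0.646, 1.09 and 0.659 CPM in the KO mice. The lowest WT library, that of mouse 317, was still above every KO library. Atp6v0c fell by 3.53 on the log2 scale (SE 0.313, edgeR adjusted p 2.43e-07), from counts of 43 to 102 in WT and 4 to 15 in KO. The V-ATPase genes Atp6v1d and Atp6ap2 had far more counts in the same WT libraries, 3225 to 4008 and 2694 to 3145. Whether the counts under Atp6v0c hold most of its reads was not tested. Atp6v0c lies on chromosome 17 from 24163865 to 24169678, at -6.43 Mb relative to Glo1, and shares 9.24% of its 75-base stretches with annotated pseudogene copies. In the other hippocampal groups it ranged from 0.629 to 1.43 CPM (KO, normal diet) and from 4.68 to 10.3 CPM (WT, lacking diet), and its log2 change with the lacking diet was -0.51 within KO and -0.04 within WT (edgeR adjusted p 0.734 and 0.994).

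**Figure D1:**
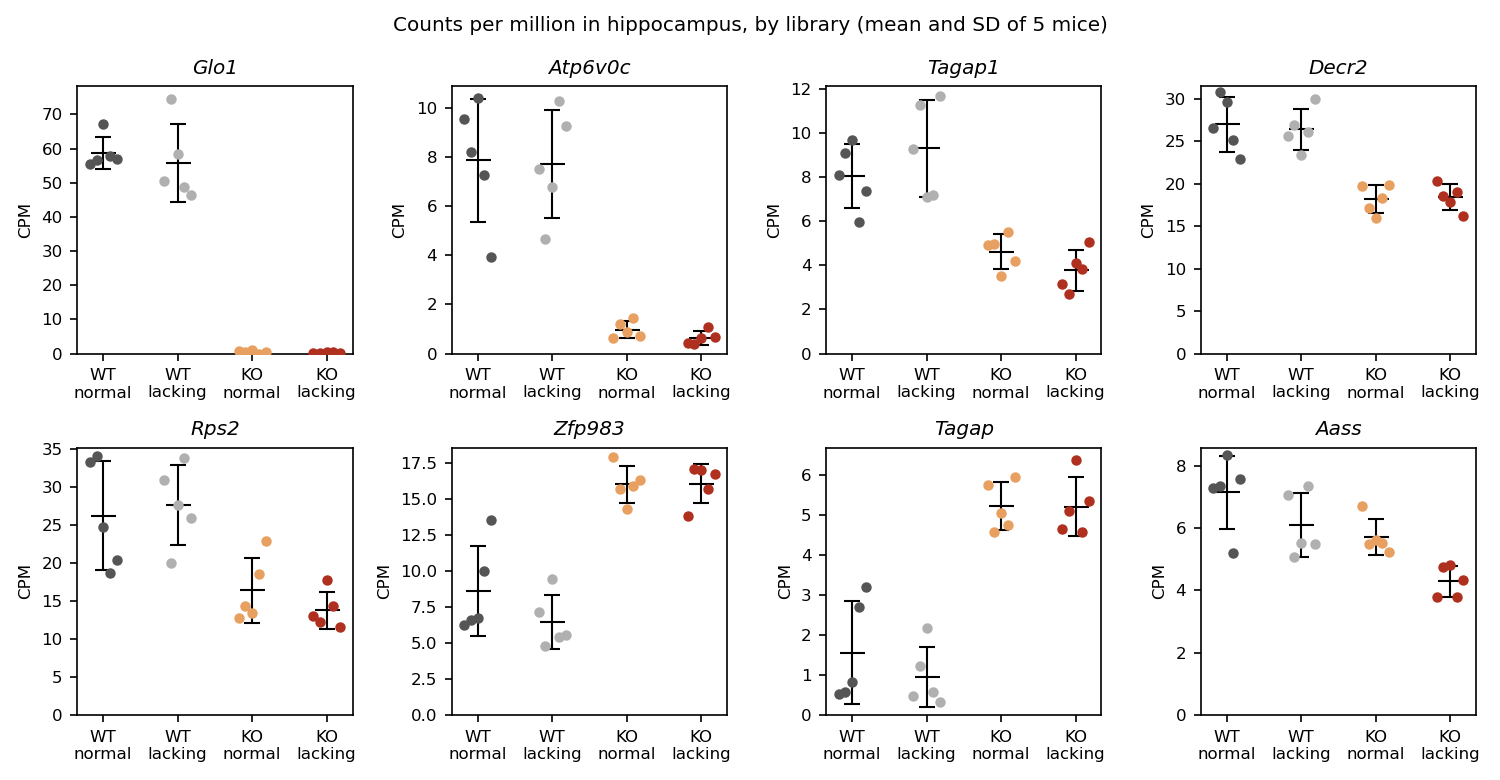
CPM (vertical axes, from 0) of 8 genes in the 20 hippocampal libraries, by genotype and diet; points are mice, the bar and whiskers the mean and SD of 5 mice. Glo1 and Atp6v0c are near 0 in both KO groups, Zfp983 and Tagap are higher in both, and Aass is lowest in KO mice on the lacking diet, at 3.78 to 4.81 CPM.

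The genes next in order of p-value did not pass the threshold, and most lay on the chromosome of Glo1. Of the 20 genes with the smallest p-values other than Glo1, 14 were on chromosome 17 and 10 were within 20 Mb of Glo1. Away from Glo1 itself, 66 of the 607 tested genes of the chromosome had an unadjusted p under 0.05 (10.9%; 24 higher and 42 lower), against 415 of 12714 on other chromosomes (3.26%). The share was 6.99% within 5 Mb (13 of 186 genes), 22.5% from 5 to 10 Mb (25 of 111), 13% from 10 to 20 Mb (15 of 115) and 9.88% from 20 to 30 Mb (8 of 81). Over all genes more than 20 Mb away it was 6.67% (13 of 195), about that within 5 Mb. The groups did not overlap in 25 genes of the chromosome other than Glo1, 4.12% of those tested, and in 0.7% of the genes elsewhere. These counts describe genes that lie beside each other and are not independent.

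**Figure D2:**
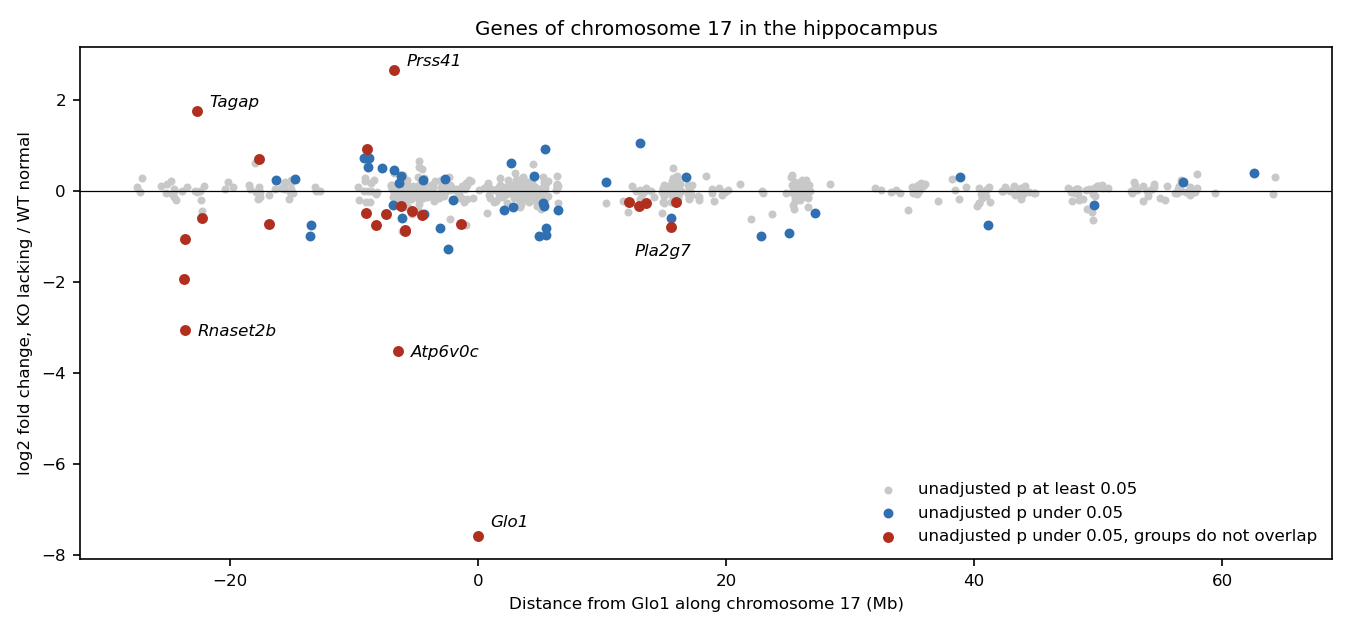
Log2 fold change of KO lacking against WT normal (vertical axis) by distance from Glo1 along chromosome 17 (horizontal axis, Mb) for the tested genes of that chromosome. Red points have an unadjusted p under 0.05 and no overlap of CPM between the groups, and 10 of the 111 genes from 5 to 10 Mb of Glo1 have no overlap.

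Among the lower genes near Glo1, Decr2, a peroxisomal reductase of unsaturated fatty acid breakdown, stood at 26.6, 30.8, 29.7, 25.2 and 22.9 CPM in WT and at 20.3, 18.6, 17.9, 19.1 and 16.2 CPM in KO. The groups did not overlap, with a log2 fold change of -0.54 (SE 0.102, edgeR adjusted p 0.0633). The naming rule took 10 higher and 10 lower genes, described here and below, partly by this lack of overlap, so it adds no support for them. Rps2, a protein of the small ribosomal subunit, stood at 33.3, 34.1, 24.8, 18.7 and 20.4 CPM in WT and at 13, 12.3, 17.8, 14.3 and 11.6 CPM in KO (log2 fold change -0.90, SE 0.174, edgeR adjusted p 0.0633). The lowest WT library, that of mouse 286, was just above the highest KO library, and 36% of the 75-base stretches of Rps2 occur in other annotated genes. Gnptg, a subunit of the enzyme that marks lysosomal proteins with mannose 6-phosphate, ranged from 27.3 to 33.2 CPM in WT and from 19.6 to 23.3 CPM in KO (log2 fold change -0.46, edgeR adjusted p 0.0861). Of its 75-base stretches, 46.2% are shared with the overlapping gene Unkl, so its level is uncertain. Pla2g7, a lipase that inactivates platelet-activating factor, lay on the other side of Glo1 at 12.98 Mb and ranged from 185 to 248 CPM in WT and from 161 to 177 CPM in KO (log2 fold change -0.34, edgeR adjusted p 0.126).

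Several zinc finger genes between 7 and 9 Mb from Glo1 had log2 fold changes of opposite sign. Zfp983 stood at 6.24, 6.57, 6.73, 9.96 and 13.5 CPM in WT and at 13.8, 17.1, 17, 15.7 and 16.7 CPM in KO, higher in every KO library (log2 fold change 0.91, SE 0.182, edgeR adjusted p 0.0693). WT mouse 317 lay next to the KO libraries. Zfp945 and Zfp760 had log2 fold changes of 0.49 and 0.53 (edgeR adjusted p 0.0633 and 0.358) with 1 WT library, again that of mouse 317, inside the KO range. Zfp40 and Zfp758 had log2 fold changes of -0.51 and -0.75 (edgeR adjusted p 0.236 and 0.514), and their groups did not overlap.

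At 22 to 24 Mb from Glo1, toward the end of the chromosome, lay 4 named genes whose groups did not overlap. The naming rule chose genes partly by this lack of overlap. Among all tested genes 20 to 30 Mb from Glo1, the groups did not overlap in 5 of 81 (6.17%), against 0.866% of all genes tested. The 4 named genes are among these 5, and this span was not among the planned distances, so the share adds no support. Over all genes more than 20 Mb away, a planned group, it was 5 of 195 (2.56%). Tagap1 stood at 8.11, 9.09, 9.69, 5.96 and 7.4 CPM in WT and at 3.14, 2.7, 4.09, 3.86 and 5.08 CPM in KO (log2 fold change -1.07, SE 0.196, edgeR adjusted p 0.0583). Its paralog Tagap, which encodes a GTPase-activating protein of T cells, had the opposite sign, with 0.52, 0.58, 0.816, 2.71 and 3.2 CPM in WT and 4.66, 5.11, 6.39, 4.58 and 5.36 CPM in KO (log2 fold change 1.74, SE 0.39, edgeR adjusted p 0.154). These paralogs share sequence: 66.5% of the 75-base stretches of Tagap1 and 50.1% of those of Tagap occur in another gene, so their levels are uncertain. Rnaset2b, a ribonuclease gene with 51.4% shared stretches, had 7 to 19 counts in WT and 0 to 4 in KO (log2 fold change -3.05, edgeR adjusted p 0.0979). Prr18 ranged from 31.5 to 42.9 CPM in WT and from 20.2 to 30.5 CPM in KO (log2 fold change -0.59, edgeR adjusted p 0.0693).

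WT mouse 317 was the WT library nearest to the KO mean for 10 of the 16 chromosome 17 genes, other than Glo1, that the naming rule chose by p-value or place, a count made after the values were seen. For the 7 genes chosen by p-value on other chromosomes it was the nearest for 1. Without it, 11 genes passed the threshold, all on chromosome 17: Glo1, Atp6v0c, Decr2, Prr18, Rps2 and Tagap1 were lower, and Prss41, Tagap, Zfp760, Zfp945 and Zfp983 were higher. Prss41, a serine protease gene, shows the same library plainly, with 2, 0, 0, 0 and 20 counts in WT and 24 to 44 in KO (0 to 1.83 CPM against 2.23 to 3.16 CPM). Glo1 itself was at 56.9 CPM in mouse 317, within the range of the other WT libraries. Among WT mice on the lacking diet, mouse 241 had the highest Prss41, Tagap and Zfp983, at 1.67, 2.17 and 9.46 CPM. What sets these libraries apart was not tested.

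Off chromosome 17, Aass had the smallest p-value among the named genes. It encodes the enzyme that opens lysine breakdown in mitochondria, and it stood at 7.28, 7.35, 8.36, 5.2 and 7.59 CPM in WT and at 3.79, 4.74, 4.81, 3.78 and 4.33 CPM in KO. Every KO library was below every WT library (log2 fold change -0.71, SE 0.152, edgeR adjusted p 0.0980), which did not pass. Aass was named partly for this lack of overlap. Its log2 fold change was -0.35 for KO against WT on the normal diet and -0.47 on the lacking diet, and -0.36 in KO and -0.25 in WT for the lacking against the normal diet, none past the threshold in edgeR. Aldh7a1, which acts later in lysine breakdown, ranged from 69.2 to 80.9 CPM in WT and from 60.2 to 70.9 CPM in KO (log2 fold change -0.16, unadjusted p 0.0458, edgeR adjusted p 0.9997).

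The named genes off chromosome 17 that were higher in every KO library had adjusted p-values far from the threshold. Those described next were named partly for this lack of overlap. Vgf, the precursor of activity-dependent neuropeptides, stood at 39, 37.8, 38.4, 34.1 and 36.3 CPM in WT and at 44.5, 48.6, 39.8, 51.9 and 48.2 CPM in KO (log2 fold change 0.35, SE 0.109, edgeR adjusted p 0.9997). Both groups that differed from WT mice on the normal diet by 1 factor also had higher means than its 37.1 CPM: WT on the lacking diet had 49.2 CPM (SD 7.87) and KO on the normal diet 52.3 CPM (SD 8.29). Doc2a, a calcium sensor of transmitter release, ranged from 3.57 to 5.51 CPM in WT and from 6.39 to 7.9 CPM in KO (log2 fold change 0.59, edgeR adjusted p 0.758), with 25.1% of its stretches shared with the overlapping gene Ino80e. Twf2, an actin-binding protein, and Fam171a1 had log2 fold changes of 0.42 and 0.23 without overlap of the groups. Btg3, of an antiproliferative gene family, had 1 to 9 counts in WT and 12 to 17 in KO (log2 fold change 1.76, edgeR adjusted p 0.486), with 27.6% of its stretches shared with other genes.

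The comparison joins genotype and diet, and the other groups of the hippocampus show the parts, in contrasts that share libraries with it. On the normal diet, 4 genes passed for KO against WT (0.0299%; 1002 genes, or 7.48%, before adjustment): Glo1, Atp6v0c, Zfp40 at -0.70 and Decr2 at -0.60 on the log2 scale. On the lacking diet, 9 passed (0.0672%; 806 genes, or 6.02%, before adjustment), all on chromosome 17. Beside Glo1 and Atp6v0c these were Zfp983 at 1.35, Tagap at 2.51, Tagap1 at -1.27, Rps2 at -0.96, Prr18 at -0.67, Gnptg at -0.53 and Rnaset2b at -3.67, against 0.91, 1.74, -1.07, -0.90, -0.59, -0.46 and -3.05 where both factors differed. For the lacking against the normal diet, edgeR called 0 genes in KO, where 878 (6.56%) had a p under 0.05 before adjustment, and 0 in WT, where 540 (4.03%) did. The genotype by diet term called 0, with 1265 (9.45%) before adjustment.

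Gene lists were described by counts and medians, beside the same over all 13393 genes, of which 6627 were higher (49.5%) with a median log2 fold change of -0.002. The lists were not tested. Leaving out a single library moved the median by over 1.5 times, or turned its sign, in 39 of 42 lists; the others were complex I, the proteasome and synaptic vesicle genes. Of the listed genes, Atp6v0c alone passed the threshold, and of the 18 members of its V-ATPase list 12 were higher and 6 lower, with a median of 0.052 (0.008 without WT mouse 286).

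Enzymes that remove methylglyoxal or its products other than Glo1 were higher in 6 of 18 and lower in 12, with a median of -0.061 (-0.014 without WT mouse 272); Aldh7a1 was the member with an unadjusted p under 0.05. Hagh, the second glyoxalase, ranged from 31.6 to 49.7 CPM in WT and from 31.1 to 43.5 CPM in KO, and its log2 fold change of -0.05 took the opposite sign with RIN as a covariate. Of 7 genes listed for VB6 salvage, among them the thiamine transporters Slc19a2 and Slc19a3, 2 were higher and 5 lower. The median of -0.023 was 0.053 without WT mouse 273. Pdxk, the kinase that phosphorylates VB6 vitamers, ranged from 75.4 to 105 CPM in WT and from 91.1 to 103 CPM in KO. Slc19a3, a thiamine transporter, had a log2 fold change of 0.38 and Aox1, an aldehyde oxidase, of -0.48 (unadjusted p 0.0273 and 0.04; edgeR adjusted p 0.9997 for both).

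Of 38 enzymes that use pyridoxal phosphate, 15 were higher and 23 lower, with a median of -0.062 (-0.021 without KO mouse 452), and 2 had an unadjusted p under 0.05, near the 3.62% over all genes. Etnppl, which breaks down phosphoethanolamine in astrocytes, stood at 22.9, 24.6, 61.8, 26.6 and 49.3 CPM in WT and at 25.3, 28.6, 20.2, 21.9 and 25.1 CPM in KO (log2 fold change -0.60, unadjusted p 0.013, edgeR adjusted p 0.9997). WT mice 283 and 317 were high, and the other WT libraries lay among the KO libraries. Cth, which splits cystathionine to cysteine, ranged from 1.62 to 3.02 CPM in WT and from 1.16 to 2.35 CPM in KO (log2 fold change -0.58). The GABA-making enzymes Gad1 and Gad2 and the GABA-degrading Abat, which all need the cofactor, had log2 fold changes of 0.10, 0.03 and -0.06, and their groups overlapped.

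Nuclear genes of oxidative phosphorylation differed by small amounts: 63 of 79 had a higher level in KO, with a median of 0.076, which was 0.046 without WT mouse 283 and 0.115 without WT mouse 272. The counts were 28 of 36 in complex I (median 0.094), 3 of 4 in complex II (0.06), 7 of 9 in complex III (0.11), 11 of 13 in complex IV (0.071) and 14 of 17 in complex V (0.062). Leaving out a library gave medians down to 0.013 for complex II (without WT mouse 283), 0.04 for complex III and 0.03 for complex IV (both without WT mouse 317) and 0.031 for complex V (without WT mouse 286). Members with an unadjusted p under 0.05 were 2 of the 79, both of complex I, a smaller share than the 3.62% over all genes. Ndufa1 stood at 20.3, 18.6, 18.6, 19.7 and 16.1 CPM in WT and at 26.2, 21.9, 20.4, 23.3 and 24.7 CPM in KO, without overlap by a small margin (log2 fold change 0.34, SE 0.15, unadjusted p 0.035, edgeR adjusted p 0.9997). Ndufs8 had a log2 fold change of 0.25 with overlapping groups. The summed level of the 83 listed genes, tested or not, overlapped between the groups. It was 6328, 5537, 5248, 5617 and 5443 CPM in WT and 6185, 6026, 5535, 6068 and 5537 CPM in KO, with WT mouse 272 the highest of all. Mitochondrial ribosomal proteins had 51 of 76 higher (median 0.044), the citrate cycle 12 of 15 (0.049) and mitochondrial dynamics 13 of 18 (0.042), and glycolysis had 14 of 22 higher with a median of 0.032, which was -0.041 without WT mouse 286. Cytosolic ribosomal proteins had 47 of 79 higher with a median of 0.025, and antioxidant enzymes 17 of 30 with a median of 0.007 (-0.018 without WT mouse 273).

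The lists of protein turnover had medians of opposite sign. Of 32 proteasome subunits, 27 were higher, with a median of 0.084. Psmb4, of the catalytic core, stood at 27, 26.1, 21, 21.3 and 26.1 CPM in WT and at 28.2, 28.5, 29, 27.7 and 28.8 CPM in KO, without overlap (log2 fold change 0.25, SE 0.0922, unadjusted p 0.0132, edgeR adjusted p 0.9997). Psma1 and Psmb3, also of the core, had log2 fold changes of 0.17 and 0.32 with overlapping groups. Of 30 chaperones and genes of the unfolded protein response, 7 were higher and 23 lower, with a median of -0.056 (-0.021 without WT mouse 317). Calr, the calcium-binding chaperone of the endoplasmic reticulum, ranged from 395 to 531 CPM in WT and from 375 to 416 CPM in KO (log2 fold change -0.17, unadjusted p 0.0135). Creld2, a gene induced by endoplasmic reticulum stress, ranged from 6.39 to 8.06 CPM in WT and from 3.79 to 6.6 CPM in KO (log2 fold change -0.42, unadjusted p 0.0166, edgeR adjusted p 0.9997 for both).

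**Figure D3:**
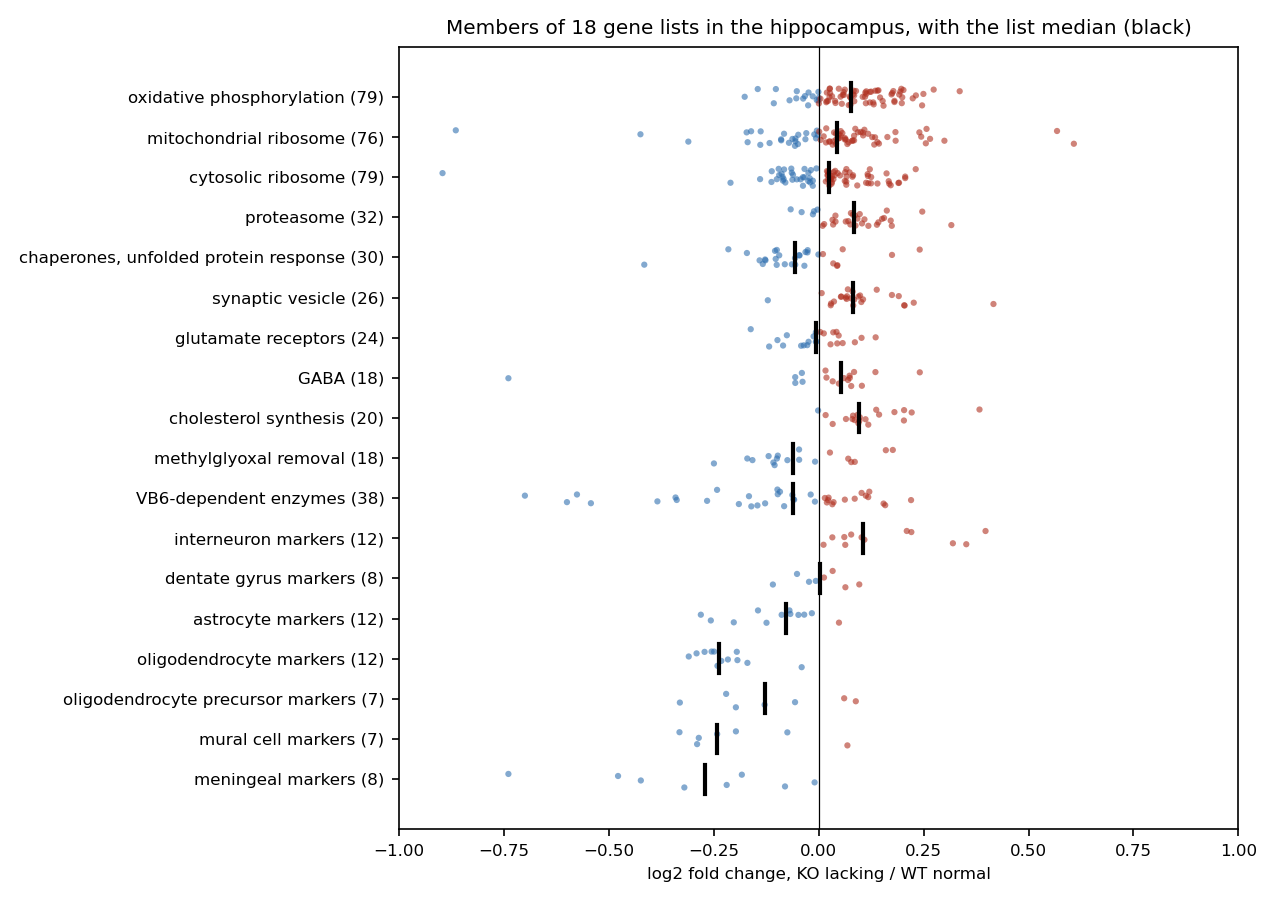
Log2 fold change of KO lacking against WT normal (horizontal axis) of each tested member of 18 gene lists, with the number of members in brackets; red points are higher and blue lower in KO, and black bars are list medians. All 12 interneuron markers lie above 0 and all 12 oligodendrocyte markers below it.

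Synaptic vesicle genes were higher in 25 of 26 members, with a median of 0.081. Syn3, a synapsin of the vesicle surface, had a log2 fold change of 0.42 (unadjusted p 0.0558). In contrast, glutamate receptors had 11 of 24 higher with a median of -0.006, and GABA receptors and transporters 13 of 18 with a median of 0.054. Cholesterol synthesis was higher in 19 of 20 members with a median of 0.097, and none of them had an unadjusted p under 0.05. Monoamine genes had 13 of 22 higher (median 0.082), immediate early genes 13 of 21 (0.061; -0.004 without WT mouse 272) and glucocorticoid targets 4 of 12 (-0.033; 0.02 without WT mouse 286). Maob, a monoamine oxidase of glia, ranged from 33.9 to 44.2 CPM in WT and from 25.7 to 39.3 CPM in KO (log2 fold change -0.24, unadjusted p 0.0224). Mvd, an enzyme of the mevalonate pathway, and Srebf2, the transcription factor of the pathway, had log2 fold changes of 0.38 and 0.20.

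Interneuron markers were higher in 12 of 12, with a median of 0.105 that was 0.068 without WT mouse 283 and 0.175 without WT mouse 272. Sst, the peptide of somatostatin interneurons, stood at 67, 68.5, 42.1, 45.8 and 48.3 CPM in WT and at 65.3, 69.8, 58.3, 79.8 and 60.2 CPM in KO (log2 fold change 0.32, unadjusted p 0.0459), and WT mice 272 and 273 overlapped with KO. Tac1, a tachykinin precursor, had a log2 fold change of 0.40 (unadjusted p 0.0187) and Npy, neuropeptide Y, of 0.35 (unadjusted p 0.0738), none past the adjusted threshold. Among the principal cell lists, 4 of 8 dentate granule cell markers (median 0.003), 4 of 6 CA1 markers (0.036) and 4 of 8 CA3 and CA2 markers (0.01) were higher, as were 5 of 10 markers of newly formed neurons (-0.014).

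Markers of myelinating oligodendrocytes were lower in 12 of 12, with a median of -0.237. Cldn11, a tight junction protein of myelin, stood at 160, 131, 157, 174 and 144 CPM in WT and at 107, 141, 100, 107 and 156 CPM in KO (log2 fold change -0.31, SE 0.142, unadjusted p 0.0394, edgeR adjusted p 0.9997). Mobp, a structural myelin protein, stood at 1330, 1110, 1690, 1640 and 1350 CPM in WT and at 1050, 1150, 991, 958 and 1620 CPM in KO (log2 fold change -0.29, unadjusted p 0.0657). Cnp, an enzyme of myelin sheaths, had a log2 fold change of -0.25. KO mouse 452 had the highest KO level of each, within the WT range for Cldn11 and Mobp and above it for Cnp. The summed level of the 12 markers was 5897, 5315, 5828, 6811 and 5043 CPM in WT and 4653, 5113, 4074, 4131 and 6939 CPM in KO, so that 3 KO libraries lay below every WT library, mouse 244 lay above the lowest of them, and mouse 452 was the highest of all 10. The median was -0.153 without KO mouse 325 and -0.383 without KO mouse 452. In bulk tissue, fewer cells of a type and less RNA per cell cannot be told apart.

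The same 12 markers were lower in 12 of 12 in KO against WT on the normal diet (median -0.308) and on the lacking diet (-0.292), with 6 and 5 of them at an unadjusted p under 0.05 (7.48% and 6.02% of all genes). The lacking against the normal diet gave 10 of 12 higher in KO (0.107) and 10 of 12 higher in WT (0.066). These contrasts share libraries. Oligodendrocyte precursor markers had 2 of 7 higher with a median of -0.129, and Gpr17, a receptor of cells on the way to myelination, ranged from 39.9 to 48.4 CPM in WT and from 32.9 to 40 CPM in KO (log2 fold change -0.22, unadjusted p 0.0111, edgeR adjusted p 0.9997). Astrocyte markers had 1 of 12 higher with a median of -0.079. Slc4a4, the bicarbonate transporter of astrocytes, stood at 370, 418, 423, 389 and 400 CPM in WT and at 362, 369, 369, 364 and 349 CPM in KO, with the groups barely apart (log2 fold change -0.12, unadjusted p 0.0304). Microglial markers had 4 of 13 higher with a median of -0.068 (-0.002 without KO mouse 325).

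Markers of tissue at the border of the hippocampus varied widely between libraries of a group. Choroid plexus markers were lower in 11 of 11, with a median of -1.286, and 0 of 11 had an unadjusted p under 0.05. Their summed level was 1311, 1212, 63.93, 55.78 and 55.76 CPM in WT and 474.8, 45.29, 62.32, 75.22 and 205.4 CPM in KO, so WT mice 272 and 273 were high and the other WT libraries were among the KO libraries. The median was -0.724 without mouse 273 and -2.171 without KO mouse 242, and without both mice 272 and 273 it was 1.4, in the other direction. Meningeal markers were lower in 8 of 8 (median -0.27) and mural cell markers in 6 of 7 (-0.242), and without those mice these medians were -0.003 and 0.026. Endothelial markers had 3 of 9 higher (median -0.052), ependymal markers 1 of 4 (-0.263), thalamic markers 4 of 8 (0.033), striatal markers 5 of 8 (0.061) and blood cell genes 2 of 3 (0.155). Without mice 272 and 273 the oligodendrocyte median was -0.243, the oxidative phosphorylation median 0.12 and the synaptic vesicle median 0.112. The part of these border tissues in other genes was not tested.

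**Figure D4:**
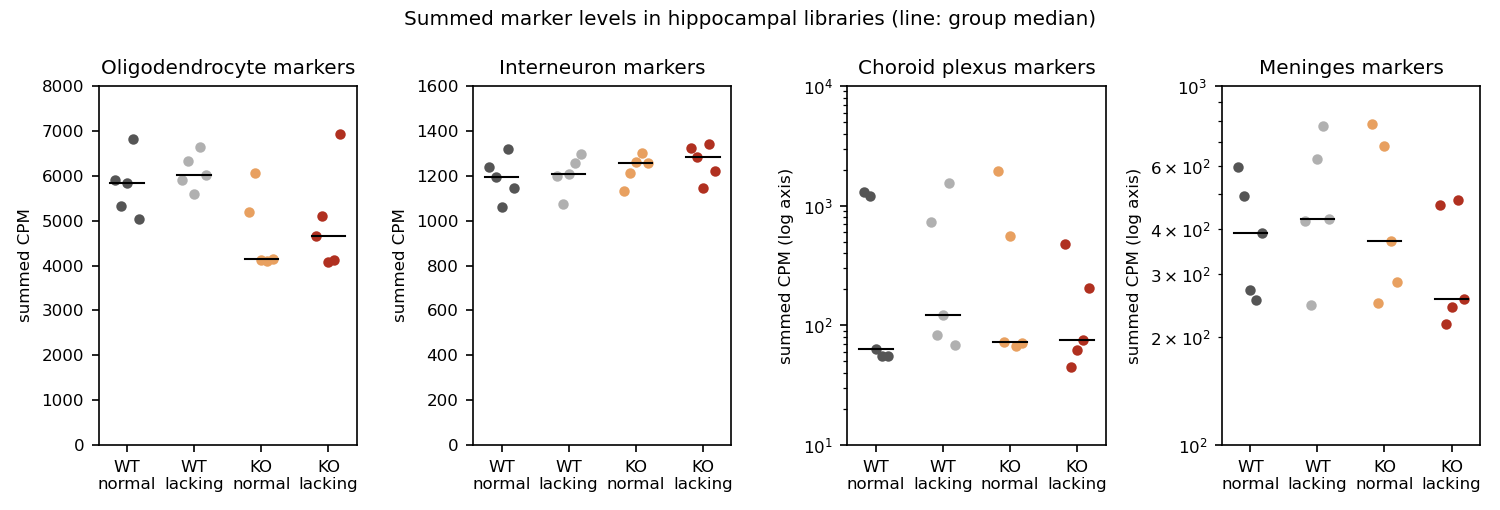
Summed CPM of 4 marker lists (vertical axes, log scale for choroid plexus and meninges) in each hippocampal library by genotype and diet; lines are group medians. KO mouse 452 is the highest oligodendrocyte point, at 6939 CPM, and WT mice 272 and 273 stand at 1311 and 1212 CPM for choroid plexus.

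The same comparison in the other regions of these mice was set beside the hippocampus in a fit of 60 libraries. Differences between hippocampus and prefrontal cortex passed for 0 of 13930 genes by edgeR, with 1019 (7.32%) at an unadjusted p under 0.05, and those between hippocampus and striatum for 0, with 544 (3.91%). Within the hippocampus this fit, whose estimate of the spread includes all 3 regions of the same mice, called 9 genes (0.0646%; 8 on chromosome 17): Glo1, Atp6v0c, Decr2, Gnptg, Pla2g7, Rnaset2b, Tagap1 and Aass were lower and Zfp983 was higher. It called 33 genes in prefrontal cortex (0.237%) and 16 in striatum (0.115%). Atp6v0c had log2 fold changes of -3.52 in hippocampus, -2.23 in prefrontal cortex and -2.92 in striatum. Decr2 had -0.53, -0.61 and -0.71, Zfp983 0.92, 0.95 and 0.82, and Pla2g7 -0.33, -0.58 and -0.42. Aass had -0.71 in hippocampus, -0.16 in prefrontal cortex and -0.34 in striatum, and Vgf 0.36, 0.07 and -0.04, and neither difference between regions passed.

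List medians differed in sign between the regions for several lists. Oxidative phosphorylation was higher in 68 of 80 genes in hippocampus (median 0.084), in 32 of 80 in prefrontal cortex (-0.041) and in 21 of 80 in striatum (-0.066). Synaptic vesicle genes were higher in 25, 17 and 11 of 26 (0.09, 0.017 and -0.019). Interneuron markers were higher in 12, 2 and 6 of 12 (0.114, -0.085 and 0.025), and oligodendrocyte markers in 0, 6 and 2 of 12 (-0.23, 0.017 and -0.091). Cholesterol synthesis had 20, 18 and 11 of 20 higher (0.106, 0.197 and 0.117). The list differences between regions were not tested.

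**Figure D5:**
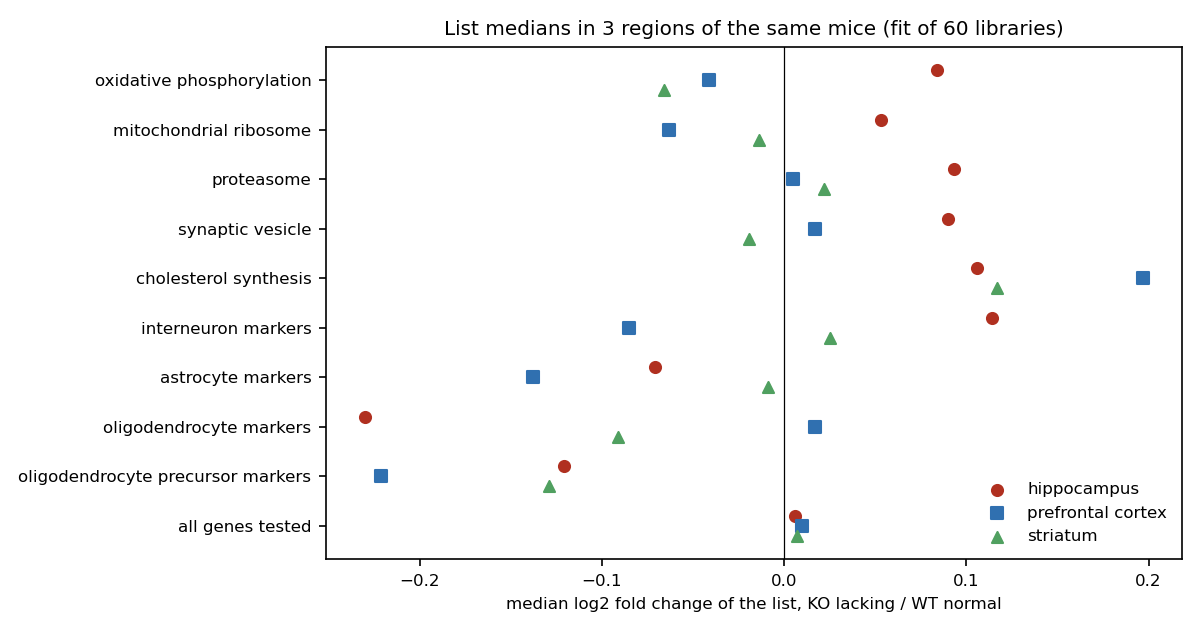
Median log2 fold change of KO lacking against WT normal (horizontal axis) of 9 gene lists and of all genes tested, in 3 regions of the same mice. The hippocampal oxidative phosphorylation median of 0.084 lies above 0, and those of prefrontal cortex and striatum, at -0.041 and -0.066, lie below it.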

How the data were processed

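Poly(A) RNA from 2 µg of total RNA was read as single 75-base reads, per the labels' protocols. The deposited table gives whole-number counts for 21999 genes, not normalized by the authors, and RPKM values that equal these counts divided by a whole-number gene length and the library total (checked in the 18514 genes with a count, within 0.01 base). Per the submitters' processing notes, mm10, STAR 2.7.1a and HTSeq 0.9.1 were used; the annotation and strand setting were not given in the sources used here. Whether reads of overlapping genes on opposite strands were told apart is therefore not known. All value columns were matched by name.

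Counts of the 20 hippocampal libraries were fitted in edgeR 4.0.16 (R 4.3.3) with TMM factors, filterByExpr (minimum count 10, minimum total 15), a mean per group and two-sided quasi-likelihood F-tests, with BH adjustment over 13393 genes. SEs were derived from the F statistics. CPM were counts over library totals. Region differences were fitted on all 60 libraries. The edgeR p-values set group differences against the spread between libraries within groups, estimated over all groups of the fit. The main fit of 60 libraries treated the 3 regions of a mouse as independent. Shared sequence was counted as identical 75-base stretches among GENCODE M21 transcripts, and positions are RefSeq GRCm38.p6.

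The comparison, the 41 lists (24 of pathways, 17 of markers) and the naming rule were chosen with earlier results of these data known. Named genes were Glo1, all genes past the threshold, the 10 higher and 10 lower of the rest with the smallest p-values and no overlap, up to 3 per list, a few set enzymes and markers, up to 10 within 20 Mb of Glo1, and genes past the threshold in KO against WT on either diet. Not every named gene is described, and some are not reported here. Library means were compared by exact permutation over 252 splits. The alternatives were DESeq2 1.42.0, limma 3.58.1 on log2(RPKM + 1) for genes with a mean of at least 1 RPKM, no TMM factors, no low-count filter, a mean of at least 1 CPM, RIN as a covariate, only the compared groups, a minimum log2 change of 0.3 and leaving out each library. The fits without WT mice 273 and 286 and without WT mice 272 and 273 were added after seeing the data. The steps were tested on simulated data. The 20 pairs of libraries within a group differed beyond counting error (chi-square per gene 2.97 to 27.6).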

Additional observations from a re-analysis of the deposited data

Results flagged for a closer look

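A library was looked at again where its gap to the nearest other library of its group exceeded 0.71 of the range of the 5 libraries. Of 132 groups of values checked, 8 met this, and chance gives about 7. Glo1 was 67.1 CPM in WT mouse 283, against 55.6 to 57.8 in the other WT libraries. Prss41 was 1.83 CPM in WT mouse 317, against 0 to 0.208. The gene 9130011E15Rik was 17.2 CPM in WT mouse 273, against 15 to 15.4. WT mouse 272 was apart in the summed level of complex I, at 1749 CPM against 1436 to 1524, and of complex III, at 649 CPM against 526 to 555. WT mouse 317 was apart in cholesterol synthesis, at 1398 CPM against 1103 to 1165, and WT mouse 286 in markers of newly formed neurons, at 436 CPM against 315 to 341. KO mouse 325 had the lowest summed level of striatal markers, at 177 CPM against 198 to 205.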

How the results depend on the processing

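The count of 2 genes became 15 with DESeq2 (3 higher and 12 lower; 12 on chromosome 17), 7 with limma on log2(RPKM + 1), 9 without a low-count filter, 4 without TMM factors and 4 with RIN as a covariate. Leaving out a library gave 2 to 11 genes: 11 without WT mouse 317, 5 without WT mouse 286 and 4 without KO mouse 452. Both fits without a pair of WT mice gave 3. At an unadjusted p under 0.05 in edgeR, leaving out a library gave from 337 genes (without KO mouse 339) to 762 (without WT mouse 286), against 485. Glo1 and Atp6v0c were called in every fit. Prelp and Pnpla7, named after their calls were seen, were among the further DESeq2 calls. Prelp, which is not on chromosome 17, was also called by edgeR without a low-count filter and without WT mouse 286. Aass was called by DESeq2 alone among these fits. The share of genes of chromosome 17 at an unadjusted p under 0.05 was 9.61% to 14.1% over these fits, against 2.13% to 6.51% elsewhere. Of the list medians, complex II was 0.149 without mice 273 and 286. Without mice 272 and 273 the proteasome was 0.15, methylglyoxal removal 0.075, astrocytes -0.133, microglia 0.042, mural cells 0.026, choroid plexus 1.4 and striatal markers 0.279. With each library left out in turn, 11 of 42 list medians turned sign in at least 1 fit: glycolysis ranged from -0.041 to 0.083, immediate early genes from -0.004 to 0.176, antioxidant enzymes from -0.018 to 0.047, VB6 salvage from -0.078 to 0.053, glucocorticoid targets from -0.072 to 0.02, glutamate receptors from -0.027 to 0.012, newly formed neurons from -0.038 to 0.085, dentate granule cells from -0.035 to 0.066, CA1 from -0.003 to 0.072, CA3 and CA2 from -0.033 to 0.067 and blood cells from -0.042 to 0.209. Some small log2 fold changes changed sign. With RIN as a covariate Hagh was 0.083, Gad2 -0.025 and Prox1 -0.036. Prox1 was -0.001 with limma and -0.003 without TMM factors. Leaving out a library in turn gave -0.108 to 0.041 for Hagh, 0 to 0.087 for Pdxk, -0.002 to 0.136 for Gad2 and -0.028 to 0.06 for Prox1. The cause of these changes was not tested. Without mice 272 and 273, Sostdc1 was 0.553, Slc4a5 2.419, Ttr 2.664, Hagh 0.113, Gad2 -0.019 and Prox1 -0.058.

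No paired analysis was possible because the compared groups are different mice. For region differences the mouse as a replicate block gave 0 and 0 genes, with 1089 and 640 at an unadjusted p under 0.05. Residuals of the same mouse in different regions correlated at 0.0468 on average (lowest -0.333). Those of different mice of the same genotype and diet, also in different regions, correlated at -0.0111 on average. Residuals were centred on group means, which ties these averages together, and dependence between regions of a mouse was not tested.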
